A study of Homo sapiens with 8 samples.

Results

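The genes described here are 10 genes of cell adhesion and epithelial splicing: the cadherins CDH1, CDH2, CDH3, CDH11, CDH13 and CDH19, the catenins CTNNA1, CTNND1 and JUP, and the splicing factor ESRP1. They were taken by symbol from the array's probe table, with every probe set that the table gives to that gene alone. This gave 14 probe sets of 8 genes, out of 22215 probe sets on the array and 11963 genes with a probe set of their own. CTNND1, which encodes p120-catenin, is listed on 3 probe sets together with its read-through gene TMX2-CTNND1; none of these can be assigned to CTNND1, so they are counted apart and no value is given for that gene. CDH13 was not analysed here, because the probe table used does not list it.

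Cadherins are calcium-dependent adhesion proteins that bind their like on neighbouring cells. Inside the cell, β-catenin or plakoglobin (JUP) binds the cadherin tail, α-catenin (CTNNA1) links this complex to actin, and p120-catenin holds the cadherin at the membrane. Melanocytes attach to keratinocytes through E-cadherin (CDH1), and melanoma cells often carry N-cadherin (CDH2) instead. CDH3 encodes P-cadherin of basal epithelium, CDH11 a cadherin of mesenchymal cells and CDH19 a cadherin of neural crest derivatives. ESRP1 is an RNA-binding protein that selects the epithelial exons of genes such as FGFR2, CD44 and CTNND1.

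The cells were A375P, a human melanoma line, and each array measured bulk RNA from a stable line with 1 lentiviral short hairpin RNA. The controls were shGFP and shScr, the latter titled as shRNA-control, and the other hairpins, numbered 65 and 66, were directed against PGC1a, the transcriptional coactivator encoded by PPARGC1A. There were 2 arrays for each of the 4 hairpins, so 4 against 4 arrays in the main comparison. Each arm thus held only 2 hairpins, and tests of 4 against 4 arrays count arrays of the same hairpin as separate. All the lines, controls included, went through 48 h of puromycin selection and gave RNA 48 h after it; no line without a hairpin was included here. No label states that the paired arrays were grown as independent cultures, so the p-values measure the spread between these arrays, which may be technical. In bulk RNA, a fall in RNA per cell and a fall in the number of cells that hold it cannot be told apart.

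Sequences of the region before the gene start were at hand for 4 of the 10 genes (CDH2, CDH19, CTNNA1 and JUP), from RefSeq on build GRCh38.p14. CDH19 and the first of 4 listed CTNNA1 starts are shown because their RNA was higher with the PGC1a hairpins, and the second of 2 JUP starts because it alone held a motif that was searched. Each is the 250 bases before the start, on the strand of the gene, 5′ to 3′. The windows are chr18:66604091-66604340 (minus strand) for CDH19, chr5:138753175-138753424 (plus strand) for CTNNA1 and chr17:41785977-41786226 (minus strand) for JUP. Capitals mark matches to CACCTG or its reverse complement CAGGTG, the box that ZEB and SNAI repressors bind.
CDH19: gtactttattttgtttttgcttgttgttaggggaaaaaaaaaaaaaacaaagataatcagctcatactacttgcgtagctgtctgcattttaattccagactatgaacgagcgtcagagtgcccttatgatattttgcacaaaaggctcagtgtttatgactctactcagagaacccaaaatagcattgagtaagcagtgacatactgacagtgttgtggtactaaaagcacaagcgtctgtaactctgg
CTNNA1: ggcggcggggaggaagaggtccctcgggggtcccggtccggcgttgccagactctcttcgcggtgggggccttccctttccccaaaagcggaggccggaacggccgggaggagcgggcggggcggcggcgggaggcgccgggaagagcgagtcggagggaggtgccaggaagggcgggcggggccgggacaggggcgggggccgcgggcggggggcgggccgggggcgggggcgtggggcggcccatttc
JUP: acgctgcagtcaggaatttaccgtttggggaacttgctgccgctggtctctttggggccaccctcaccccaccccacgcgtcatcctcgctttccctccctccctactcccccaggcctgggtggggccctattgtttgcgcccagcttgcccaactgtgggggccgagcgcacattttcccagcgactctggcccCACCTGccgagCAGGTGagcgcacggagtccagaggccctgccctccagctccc
The JUP window held 2 matches, beginning 54 and 43 bases before the start, 1 on each strand. The same box is found in 17.5% of 35116 such windows. A further 3 motifs were searched on both strands: CATGTG (in 9.42% of windows), the palindrome CACGTG (6.34%) and AAGGTCA, the half-site of oestrogen-related receptors (3.44%). They had no match in any of the 9 windows of these 4 genes, which says only that these letters are not there. G and C made up 38% of the CDH19 window and 80% of the CTNNA1 window.

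The hairpins lowered their target. PPARGC1A signals were 560 and 543 with shGFP, 570.2 and 551 with shScr, 126 and 144 with hairpin 65, and 114 and 115 with hairpin 66. The arms did not overlap, and the log2 signal was lower by 2.16 (exact two-sided permutation p = 0.0286, the smallest that 4 against 4 arrays allow). Signals are the authors' RMA values on a linear scale. Median signals of the arrays ran from 137 to 141 and the lowest signal of any probe set was 9.17, with no call of which signals are above background. A log2 difference of 1 is a doubling; differences, their standard errors (SE) and p-values came from limma, adjusted over all 22215 probe sets by Benjamini and Hochberg. "Rose" and "fell" are used where the adjusted p was under 0.05. The 3′ minus 5′ log2 difference of the ACTB control probe sets, a measure of RNA or labelling quality, differed between the arms: 2.19 ± 0.18 for controls against 2.53 ± 0.11 for PGC1a hairpins (SD over 4 arrays each; difference 0.35, exact permutation p = 0.0286). Without shGFP replicate 1, hairpin 65 replicate 2 or hairpin 66 replicate 1 that exact p was 0.0571, 0.0571 and 0.0857. The same difference for GAPDH was 0.17 and 0.18 (exact permutation p = 0.571). The ACTB difference ran from 1.97 to 2.34 on the control arrays and from 2.41 to 2.65 on the PGC1a hairpin arrays. As a covariate it follows the arm closely, so a call lost with it cannot tell RNA quality and hairpin apart.

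With the PGC1a hairpins, ESRP1 fell, CDH19 and 3 of 4 CTNNA1 probe sets rose, and CDH1, CDH2, CDH3, CDH11 and JUP did not pass the test. In counts, 5 of the 14 probe sets passed, 4 higher and 1 lower, in 3 of the 8 genes. That is 35.7% of the members beside 18.0% of all probe sets, of which 9.49% were higher and 8.46% lower. By 1 probe set a gene, 3 of 8 members passed beside 20.6% of genes, with p-values adjusted over all probe sets. In the same 5 probe sets the 2 arms had no range in common, which was so for 24.0% of all probe sets. The median log2 difference was 0.09 over the members and -0.0047 over all probe sets. None of the 3 probe sets shared by CTNND1 and its read-through gene passed with limma, and 0 of the 3 had an unadjusted p under 0.05.

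**Figure D1:**
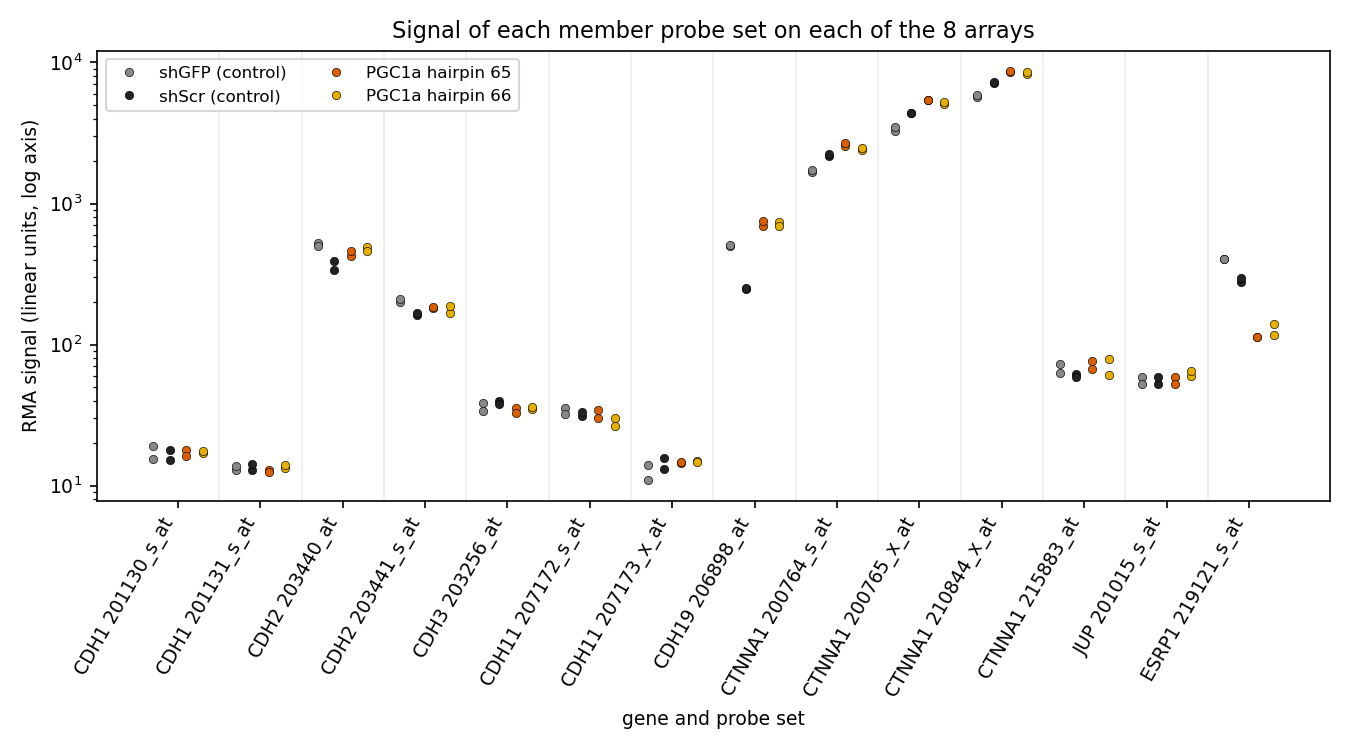
Signal of each of the 14 member probe sets (linear RMA units on a log axis) on each of the 8 arrays, with 1 point per array, coloured by hairpin. ESRP1 lies between 112 and 141 on the knockdown arrays and between 279 and 402 on the controls, while both CDH1 probe sets stay between 12.4 and 19.1 on every array.

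ESRP1, probe set 219121_s_at, gave signals of 402 and 401 with shGFP, 279 and 298 with shScr, 114 and 112 with hairpin 65, and 118 and 141 with hairpin 66. Every knockdown array lay below every control array, and the shGFP arrays lay above the shScr arrays. The mean went from 345 ± 65.9 to 121 ± 13.3 (SD, n = 4 per arm), 2.82-fold lower by the means of log2 values, with a log2 difference of -1.50 (SE 0.13, adjusted p = 5.59e-05). Each PGC1a hairpin lowered it alone, 3.01-fold with hairpin 65 (adjusted p = 2.55e-05) and 2.64-fold with hairpin 66 (adjusted p = 4.15e-05). These comparisons share the control arrays, and their p-values leave out the spread between the control hairpins. Between hairpins 65 and 66 the log2 difference was -0.19 (95% interval -0.40 to 0.025, adjusted p = 0.759).

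The ESRP1 order was shGFP, shScr, hairpin 66, hairpin 65, and of the neighbours in it only hairpins 66 and 65 did not differ beyond their spread. With shGFP, ESRP1 exceeded its shScr level by 1.39-fold (adjusted p = 0.0264), a gap smaller than that from either control to either PGC1a hairpin. Against shScr alone it was 2.55-fold lower with hairpin 65 (adjusted p = 1.81e-04) and 2.24-fold lower with hairpin 66 (adjusted p = 3.24e-04); against shGFP alone it was 3.55-fold and 3.12-fold lower. With the ACTB difference as a covariate the log2 difference was -1.29 (adjusted p = 0.0168). The probe set measures ESRP1 RNA and not the exons it selects.

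CDH19, probe set 206898_at, had signals of 499 and 504 with shGFP, 246 and 250.3 with shScr, 694 and 754 with hairpin 65, and 742 and 698 with hairpin 66. The arms did not overlap, but the control arrays formed a low pair with shScr and a higher pair with shGFP. Over the arms the mean went from 375 ± 146 to 722 ± 30.5 (SD, n = 4 per arm), 2.04-fold higher, with a log2 difference of 1.03 (SE 0.23, adjusted p = 0.0127). Hairpins 65 and 66 gave 2.05-fold and 2.04-fold (SE 0.06 and adjusted p = 4.88e-05 for each). These p-values rest on the spread between arrays of a hairpin. They leave out the gap between the control hairpins, which the 2-group SE of 0.23 includes. Hairpins 65 and 66 differed from each other by a log2 difference of 0.0072 (95% interval -0.16 to 0.17, adjusted p = 0.990).

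The CDH19 gap between the control hairpins was nearly as wide as the knockdown difference: shGFP exceeded shScr by a log2 difference of 1.01 (SE 0.07, adjusted p = 5.01e-04). Its rise was therefore 2.91-fold and 2.90-fold against shScr alone (adjusted p = 5.19e-05 and 3.99e-05 for hairpins 65 and 66), but 1.44-fold and 1.43-fold against shGFP alone (adjusted p = 0.00198 and 0.00213). In the order of levels, the PGC1a hairpins stood highest and could not be separated, then came shGFP and then shScr. The 2-group call was lost with the 2 arrays of each hairpin averaged (adjusted p = 0.109), without hairpin 65 (0.107) or hairpin 66 (0.102), with a minimum fold of 1.2 (0.103) and with the ACTB difference as a covariate (log2 difference 1.16, adjusted p = 0.198).

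CTNNA1, α-catenin, had 4 probe sets. The brightest, 210844_x_at, had signals of 5700 and 5863 with shGFP, 7144 and 7288 with shScr, 8618 and 8666 with hairpin 65, and 8216 and 8516 with hairpin 66. The knockdown arrays all lay above the controls, with shGFP lowest. Its mean went from 6498 ± 833 to 8504 ± 202 (SD, n = 4 per arm), 1.32-fold higher, with a log2 difference of 0.40 (SE 0.09, adjusted p = 0.0103). Probe set 200765_x_at rose 1.37-fold, from 3885 ± 600.2 to 5272 ± 139 (adjusted p = 0.011), and 200764_s_at 1.30-fold, from 1954 ± 290.2 to 2525 ± 130.0 (adjusted p = 0.0248; SD, n = 4 per arm). The suffixes s_at and x_at mark probe sets that can bind more than 1 transcript. The only CTNNA1 probe set without such a suffix, 215883_at, lay between 59.3 and 79.4 with overlapping arms and did not pass (log2 difference 0.14, 95% interval -0.07 to 0.35, adjusted p = 0.376).

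Where the CTNNA1 reference was shGFP, the 3 probe sets that rose were 1.43-fold to 1.60-fold higher with either PGC1a hairpin, and all 3 passed. Against shScr alone they were 1.19-fold to 1.22-fold higher with hairpin 65, with adjusted p from 0.028 to 0.0499. With hairpin 66 they were 1.10-fold to 1.18-fold higher than with shScr and none passed (adjusted p from 0.0599 to 0.226). The controls differed by nearly as much as the arms: shGFP was lower than shScr by 1.25-fold to 1.31-fold in these 3 probe sets (adjusted p from 0.0164 to 0.0255). For 200764_s_at the 2-group call was lost without either shGFP array (adjusted p = 0.0599 and 0.0656 without replicates 1 and 2), without either hairpin 65 array (0.0608 and 0.0718) without replicate 2 of hairpin 66 (0.0519), or without both shGFP arrays (log2 difference 0.20, adjusted p = 0.102). All 3 calls were lost with averaged arrays (adjusted p from 0.11 to 0.16), without hairpin 65 (from 0.105 to 0.193) or hairpin 66 (from 0.0729 to 0.0933), with a minimum fold of 1.2 (from 0.604 to 1) and with the ACTB covariate (log2 differences of 0.29 to 0.34, adjusted p from 0.32 to 0.481).

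**Figure D2:**
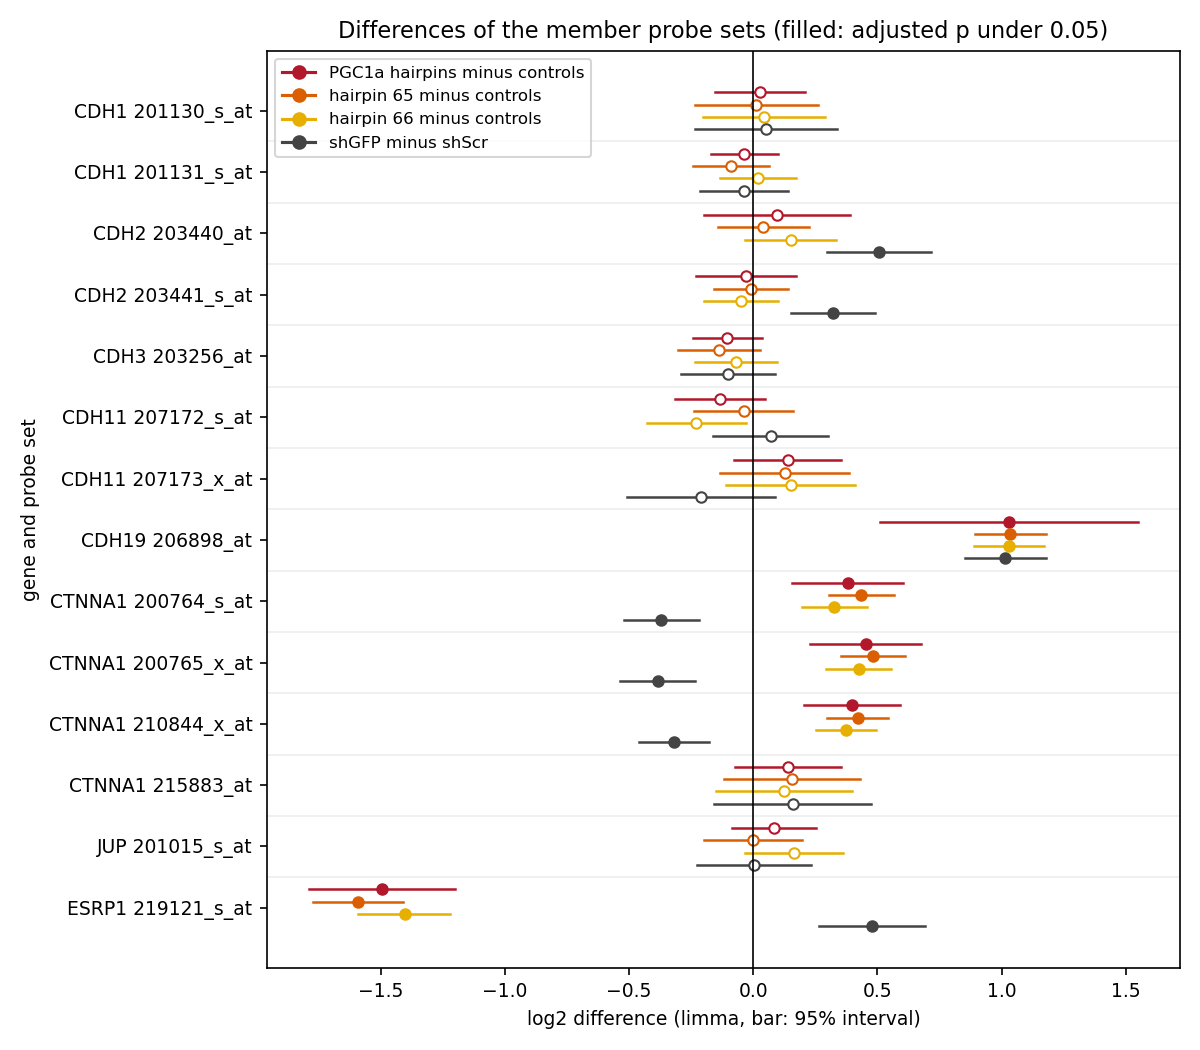
Log2 difference (x axis) of each member probe set (y axis) in 4 comparisons, with 95% intervals from limma; filled points have an adjusted p under 0.05. ESRP1 is the 1 probe set below 0 among the filled PGC1a comparisons, and the grey points show that ESRP1, CDH19, CTNNA1 and CDH2 also differ between the control hairpins.

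E-cadherin, CDH1, stayed near the lowest signals of the array. Probe set 201130_s_at gave 19.1 and 15.4 with shGFP, 17.9 and 15.3 with shScr, 17.8 and 16.2 with hairpin 65, and 17.1 and 17.6 with hairpin 66. The arms overlapped, and the log2 difference was 0.03 (95% interval -0.15 to 0.21, adjusted p = 0.875). The second CDH1 probe set, 201131_s_at, lay between 12.4 and 14.3 (log2 difference -0.04, 95% interval -0.17 to 0.10, adjusted p = 0.765). Whether these signals are above background is unknown, and a change at a signal near background would be understated.

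N-cadherin, CDH2, was measured by 2 probe sets. For 203440_at the signals were 525 and 501 with shGFP, 335 and 389 with shScr, 425 and 461 with hairpin 65, and 492 and 464 with hairpin 66. The knockdown arrays lay between those of the control hairpins, so the log2 difference of the arms was 0.10 (95% interval -0.20 to 0.39, adjusted p = 0.702). Probe set 203441_s_at lay between 162 and 209 (log2 difference -0.03, 95% interval -0.23 to 0.17, adjusted p = 0.884). CDH2 differed between the controls, with shGFP above shScr by 1.42-fold with 203440_at (adjusted p = 0.0207) and 1.25-fold with 203441_s_at (adjusted p = 0.0496). The direction for 203440_at depended on the control: without shGFP it was higher with the PGC1a hairpins (log2 difference 0.35, adjusted p = 0.0336), and without shScr the difference was -0.16 (adjusted p = 0.188).

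The other cadherins of the set had low signals and overlapping arms. CDH3 lay between 32.8 and 39.6 on the 8 arrays (log2 difference -0.10, 95% interval -0.24 to 0.04, adjusted p = 0.317). The CDH11 probe sets lay between 26.3 and 35.5 (207172_s_at) and between 10.9 and 15.7 (207173_x_at). Their log2 differences had opposite signs, -0.13 (adjusted p = 0.317) and 0.14 (adjusted p = 0.389). Plakoglobin, JUP, gave signals of 59.1 and 52.6 with shGFP, 52.5 and 58.9 with shScr, 58.9 and 52.7 with hairpin 65, and 60.3 and 64.7 with hairpin 66. The replicates of a hairpin were as far apart as the arms (log2 difference 0.08, 95% interval -0.09 to 0.25, adjusted p = 0.530).

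The separate hairpins gave the same 5 calls. With hairpin 65 and with hairpin 66, 5 of 14 member probe sets passed, beside 18.2% and 17.2% of all probe sets. Between hairpins 65 and 66, 0 of 14 passed with limma, 0 had an unadjusted p under 0.05, and 0% of all probe sets passed; 1518 of the 22215 had an unadjusted p under 0.05. Between shGFP and shScr, 7 of 14 member probe sets passed, 4 higher in shGFP (CDH19, ESRP1 and both of CDH2) and 3 lower (CTNNA1), beside 5.56% of all probe sets (3.12% higher and 2.44% lower). That count fell to 1 without either shGFP array or without shScr replicate 1, and to 2 without shScr replicate 2, each of which leaves 1 array that is assumed to vary like the other groups. CDH19 and ESRP1 passed in the 2-group comparison, with each PGC1a hairpin and against each control alone, 2 of 14 probe sets beside 6.46% of all probe sets with the same sign throughout. Against 1 control alone, 5 member probe sets passed with hairpin 65 against shGFP, 5 with hairpin 66 against shGFP and 5 with hairpin 65 against shScr (beside 19.2%, 17.8% and 11.3% of all probe sets). For hairpin 66 against shScr 3 passed, beside 11.9%: CDH19, ESRP1 and CDH2 203440_at.

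**Figure D3:**
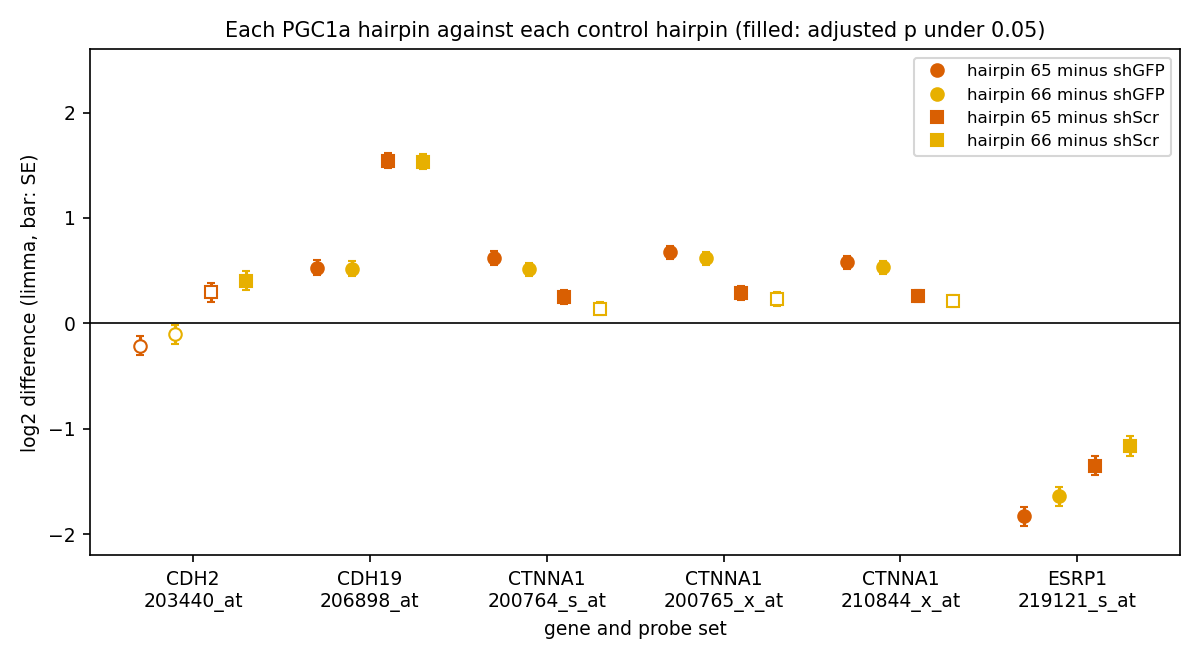
Log2 difference (y axis, with SE) of hairpins 65 and 66 against shGFP alone (circles) and shScr alone (squares) for CDH2 203440_at and the 5 probe sets that passed; filled points have an adjusted p under 0.05. ESRP1 is lower in all 4 comparisons by log2 differences of -1.16 to -1.83, CDH19 is higher by 0.52 to 1.54, and CDH2 lies below 0 against shGFP and above 0 against shScr.

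Genes around the members came from lists by function, with the brightest probe set of each gene. Of 13 other cadherins measured, 0 passed with limma and 0 had an unadjusted p under 0.05. Their signals lay between 13.4 and 116, and their median log2 difference was 0.06, between -0.20 and 0.17. Over all genes 10.8% were higher and 9.79% lower, with a median of -0.0046. Among them were CDH6 (43.8 in the controls and 42.5 with the PGC1a hairpins) and the endothelial CDH5 (16.8 and 19.0).

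Among 22 other catenins and partners of the adherens junction, 7 rose and 2 fell (median 0.11), beside 10.8% higher and 9.79% lower over all genes. Without hairpin 66 replicate 1 the 7 became 4, with IQGAP1, PKP4 and PTPRF no longer passing. ZYX, zyxin, an actin-associated protein of adhesion sites, rose 2.14-fold, with means of 177 ± 15.4 and 377 ± 21.2 (SD, n = 4 per arm; adjusted p = 1.21e-05). The actin cross-linkers ACTN1 and ACTN4 rose 1.33-fold (adjusted p = 8.83e-04) and 1.37-fold (adjusted p = 0.00138). Both calls ended with a minimum fold of 1.2 (adjusted p = 0.253 and 0.183) and with the ACTB covariate (log2 differences of 0.45 and 0.32, adjusted p = 0.0529 and 0.183), as did that of LIMA1 with the covariate (-0.90, adjusted p = 0.0641). LIMA1, which binds α-catenin and actin, fell 1.90-fold, from 2080 ± 407 to 1080.2 ± 16.7 (SD, n = 4 per arm; adjusted p = 6.14e-04), and shGFP exceeded shScr in it by 1.40-fold (adjusted p = 0.00871). The other that fell was CTNND2, δ-catenin, 1.27-fold (adjusted p = 0.00757), at low signals with means of 40.4 and 32.0. Its call ended with averaged arrays, with the ACTB covariate, with a minimum fold of 1.2 and without shGFP. CTNNB1, β-catenin, had 6338 ± 469 and 6774 ± 323 (SD, n = 4 per arm) and did not pass (log2 difference 0.10, adjusted p = 0.380).

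Of 11 desmosome genes, 2 rose and 0 fell, beside 10.8% higher and 9.79% lower over all genes. DSP, desmoplakin, rose 1.34-fold (346 ± 9.20 to 465 ± 49.5; SD, n = 4 per arm; adjusted p = 0.00361). The desmosomal cadherin DSC3 rose 1.30-fold (adjusted p = 0.0433). It lost its call without any 1 of 6 arrays: both shGFP arrays, shScr replicate 2, hairpin 65 replicate 2 and both hairpin 66 arrays (adjusted p from 0.0852 to 0.116). With the hairpin as a random block, which estimates the correlation of its arrays, the DSC3 adjusted p was 0.0835. The DSP call ended with the ACTB covariate and with a minimum fold of 1.2 (highest adjusted p 0.457). Of 21 tight junction and epithelial membrane genes, 0 rose and 1 fell, the polarity gene LLGL2 (54.1 ± 8.23 to 40.4 ± 3.22; SD, n = 4 per arm; adjusted p = 0.0241). The LLGL2 call ended without shGFP replicate 1, shScr replicate 1, either hairpin 65 array or hairpin 66 replicate 1 (adjusted p from 0.0541 to 0.0712), and with the hairpin as a random block (0.0548). The median of that list was -0.05, and 18 of its 21 genes stayed under a signal of 100 on every array.

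Of 9 transcription factors known to repress CDH1, 2 rose and 1 fell (median 0.09), beside 10.8% higher and 9.79% lower over all genes. ZEB1 rose 2.28-fold, from 544 ± 132 to 1214 ± 53.9 (SD, n = 4 per arm; adjusted p = 4.41e-04), and its shGFP level was below its shScr level by 1.53-fold (adjusted p = 0.00308). TWIST1 rose from 654 ± 36.6 to 985 ± 78.7 (SD, n = 4 per arm; log2 difference 0.59, adjusted p = 3.51e-04). ZEB2, the close relative of ZEB1, fell 1.99-fold, from 451 ± 149 to 220.4 ± 44.9 (SD, n = 4 per arm; adjusted p = 0.0134). The shGFP level of ZEB2 was above its shScr level by 1.79-fold, which did not pass (limma, adjusted p = 0.0579). ZEB1 and ZEB2 thus moved in opposite directions with the PGC1a hairpins, and their differences between the control hairpins also had opposite signs. SNAI1 (log2 difference 0.18, adjusted p = 0.112) and SNAI2 (-0.04, adjusted p = 0.843) did not pass. With the ACTB covariate the log2 difference was 1.05 for ZEB1 (adjusted p = 0.0689) and 0.52 for TWIST1 (adjusted p = 0.0613), and over all alternatives run the lowest values were 0.88 and 0.52. ZEB2 lost its call with that covariate (0.213), with averaged arrays (0.0778), with a minimum fold of 1.2 (0.113), and without shGFP (0.0657), hairpin 65 (0.0981) or hairpin 66 (0.0823).

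Of 15 splicing regulators, 2 rose and 1 fell (median -0.03), beside 10.8% higher and 9.79% lower over all genes. RBM47, an RNA-binding protein of epithelial cells, fell 1.47-fold (380.2 ± 34.2 to 258 ± 26.9; SD, n = 4 per arm; adjusted p = 0.00215). Its call ended with the ACTB covariate and with a minimum fold of 1.2 (highest adjusted p 0.102). RBFOX2, which promotes mesenchymal exons, rose 1.32-fold (1263 ± 107 to 1666 ± 95.3; SD, n = 4 per arm; adjusted p = 0.00398), and the neuronal regulator PTBP2 rose 1.19-fold (adjusted p = 0.0469). Leaving out any 1 of 7 arrays, all but hairpin 66 replicate 2, ended the PTBP2 call (adjusted p from 0.0564 to 0.12), as did the hairpin as a random block (0.0963). The mean of all RBFOX2 probe sets gave a log2 difference of 0.24 in place of 0.40, and the RBFOX2 call ended with averaged arrays (adjusted p = 0.0602), the ACTB covariate (0.199), a minimum fold of 1.2 (0.598) and without hairpin 65 (0.0637). Of 18 genes known to carry exons that ESRP proteins regulate, 4 rose and 4 fell (median -0.04), beside the same 10.8% and 9.79%. Leaving out 1 array gave 4 to 6 calls in place of 8: 4 without shGFP replicate 1, shScr replicate 1, hairpin 65 replicate 1 or hairpin 66 replicate 2, 5 without shGFP replicate 2, hairpin 65 replicate 2 or hairpin 66 replicate 1, and 6 without shScr replicate 2. The calls of CTTN, ENAH, LRRFIP2 and MAP3K7 were the ones lost, and all 4 also ended with the hairpin as a random block. FAT1, a large cadherin-related protein, rose 1.34-fold (adjusted p = 0.00272), OSBPL3 rose 1.23-fold, CLSTN1 rose 1.25-fold and MLPH fell 1.27-fold (adjusted p = 0.00919). All 8 calls of this list ended with averaged arrays, with the ACTB covariate and with a minimum fold of 1.2. CD44 and FGFR2 did not pass (log2 differences of -0.21 and -0.11). These values are gene signals and carry no information on exon choice.

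**Figure D4:**
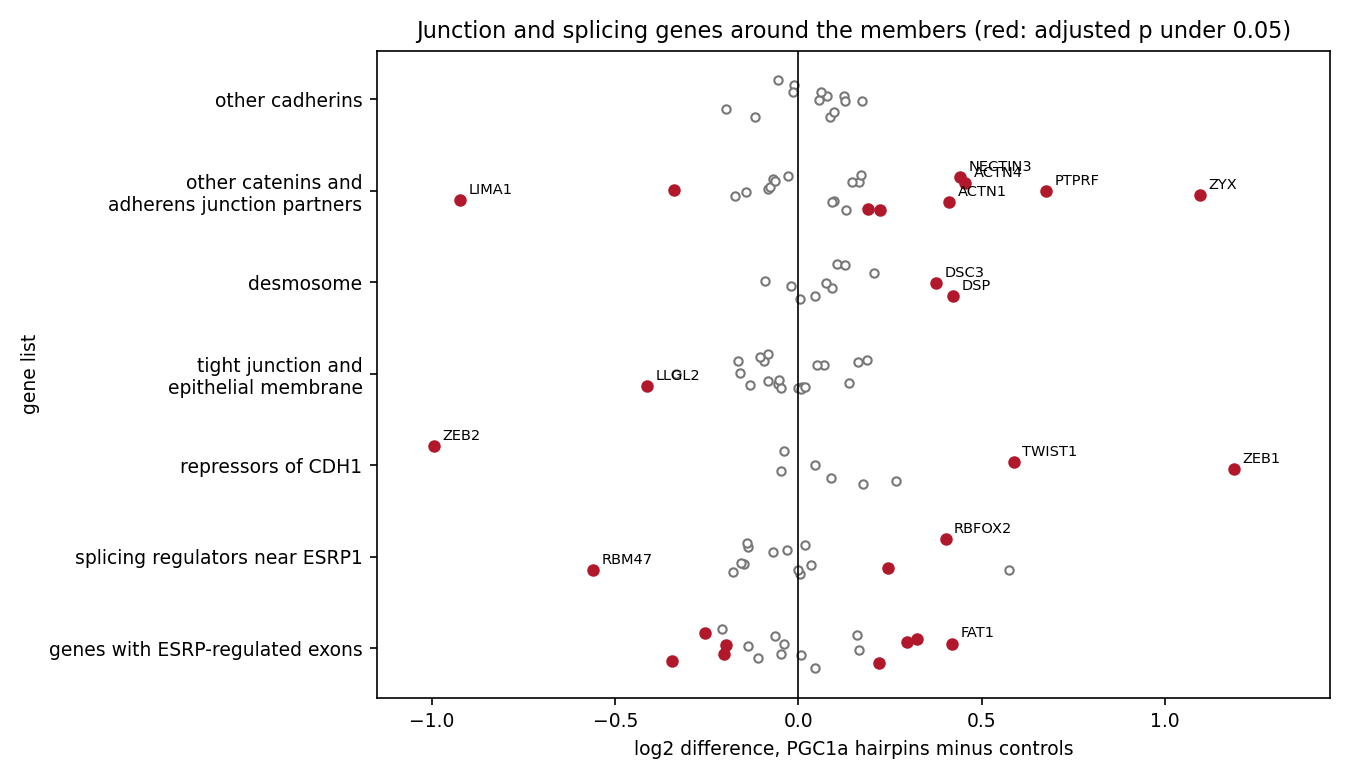
Log2 difference of the PGC1a hairpins minus controls (x axis) for each measured gene of 7 lists (y axis, points spread vertically for visibility); red points have an adjusted p under 0.05 and those past 0.35 in size are named. No gene of the list of other cadherins is red, the desmosomal cadherin DSC3 is, and ZEB1 (1.19) and ZEB2 (-0.99) lie at opposite ends.

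Markers were set beside these results, again by the brightest probe set of each gene. Over all genes 10.8% were higher and 9.79% lower with the PGC1a hairpins. Of 13 melanoma cell markers, 4 rose and 5 fell, with CSPG4 1.91-fold higher and PMEL 2.47-fold, MITF 1.51-fold and S100B 1.36-fold lower. Their summed signal lay between 30405 and 31558 in the controls and between 29157 and 30935 with the PGC1a hairpins. Between the control hairpins 4 of the 13 passed, beside 6.59% of genes. TYRP1, GPM6B and TYR were higher in shGFP and MCAM was lower. TYRP1, GPM6B and MCAM were also among those called with the PGC1a hairpins. These 3 calls and that of ERBB3 ended with averaged arrays, the ACTB covariate and a minimum fold of 1.2. The TYRP1 call also ended without any 1 of 6 arrays (adjusted p from 0.0683 to 0.0992). Melanoma markers SOX10 (3454 to 4288) and TYR (2842 to 3948) were bright, while MLANA, which marks differentiated melanocytes, lay between 19.0 and 47.0. Of 11 keratinocyte and epithelial markers, 2 rose and 0 fell: KRT18 1.28-fold (adjusted p = 0.0227) and KRT15 1.35-fold (adjusted p = 0.01). Their summed signal was 4334 to 4968 in the controls and 5234 to 5365 with the PGC1a hairpins, with most of it from KRT18 (2619 and 3322) and PERP (1367 and 1349). The median log2 difference of the list was -0.0081, and EPCAM (13.9 to 22.2) and KRT14 (13.8 to 20.5) stayed near the lowest signals. The KRT18 call ended without either shGFP array, without hairpin 65 replicate 2 or without hairpin 66 replicate 2 (adjusted p from 0.055 to 0.065). KRT15 had low signals, with means of 42.6 in the controls and 57.3 with the PGC1a hairpins. Both keratin calls ended with averaged arrays, the ACTB covariate, a minimum fold of 1.2, and without shGFP or hairpin 65. Of 12 fibroblast markers 1 rose, PDGFRB (76.9 ± 10.7 to 110.4 ± 12.6; SD, n = 4 per arm), and of 12 blood and endothelial markers 1 rose, KDR (46.4 ± 4.81 to 65.8 ± 3.02; SD, n = 4 per arm). The PDGFRB call ended with averaged arrays, the ACTB covariate, a minimum fold of 1.2, and without shGFP or hairpin 65. The KDR call ended with the minimum fold. The fibroblast sums were 1606 to 2467 in the controls and 2092 to 2226 with the PGC1a hairpins, and the blood and endothelial sums 415 to 465 and 452 to 481. Between the control hairpins, 4 of the 12 fibroblast markers were higher in shGFP, beside 445 of 11963 genes by 1 probe set a gene. Their log2 differences were 1.04 for LUM, 0.79 for FAP, 0.53 for THY1 and 0.39 for ACTA2 (limma, adjusted p from 0.00182 to 0.0364). The part of these markers in the results was not tested.

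Over the 8 arrays, the genes most like ESRP1 by Pearson's r of log2 signals, out of 11955 genes, were GALNT3 (r = 0.998), a mucin-type glycosylation enzyme, TECPR2 (0.996) and RSAD1 (0.995). GALNT3 went from a mean of 168 to 28.2, with a log2 difference of -2.54, larger than that of ESRP1, by its brighter probe set; its other probe set, at a mean signal of 24.8, had a difference of -0.11 (adjusted p = 0.227). For CTNNA1 210844_x_at they were MAGED2 (0.998), the potassium channel gene KCNK5 (0.997) and the inositol transporter gene SLC5A3 (0.995), which like CTNNA1 were lower in shGFP than in shScr, by log2 differences of -0.80, -0.69 and -0.46. With 4 hairpins of 2 arrays each, many genes follow such a pattern: r was over 0.95 for 308 genes with ESRP1 and for 285 with CTNNA1. The correlations describe these arrays and carry no test.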

How the data were processed

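The deposited values are intensity values per probe set, made by the authors with RMA, whose version is not given in the sources used here, from biotin-labelled cRNA on 1-colour Affymetrix arrays, per the submitters' processing notes and the labels; they are on a linear scale. The log2 was taken here, 62 control probe sets were left out, and all others were tested singly without a signal filter. In RMA values, differences at low signal can be understated. Depth does not apply; the number of arrays limits the precision.

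Symbols came from the array's probe table (19070 probe sets with 1 symbol, 1043 with several, 2164 with none; 0 symbols changed against RefSeq). Probe sets with several symbols name no gene.

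The fits used limma 3.58.1 in R 4.3.3: 4 against 4 arrays in a 2-group fit (6 residual degrees of freedom), and 4 groups for the separate hairpins (4 degrees of freedom). The p-values of the 4-group fit rest on the spread between arrays of the same hairpin. The spread between hairpins of an arm does not enter them. Both fits were tested on simulated data in which hairpins of the same arm did not differ. That test therefore does not cover the spread between hairpins of an arm. The genes and lists were chosen with earlier results of these data known. Named list genes are at most 4 called genes per list by smallest p; other list genes (CTNND2, CTNNB1, IQGAP1, PKP4, PTPRF, CTTN, ENAH, LRRFIP2, MAP3K7, PERP, LUM, FAP, THY1, ACTA2, TYRP1, GPM6B, MCAM, ERBB3, CDH5, CDH6, SNAI1, SNAI2, CD44, FGFR2, SOX10, TYR, MLANA, EPCAM and KRT14) were named after their values were seen. Alternatives were other probe set summaries, a signal filter, other normalization, variance and block models, a fold minimum, a covariate, and arrays or hairpins left out; 1 control hairpin as the reference was added after seeing the data.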

Additional observations from a re-analysis of the deposited data

How the results depend on the processing

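No value turned its direction past the threshold under any of the alternatives run. ESRP1 kept its call in all 23 alternatives of the 2-group comparison, with log2 differences from -1.73 to -1.26 and adjusted p from 3.19e-06 to 0.0168. The 2-group comparison called 5 of the 14 member probe sets, and 3989 probe sets in all. Refitted and adjusted over 1 probe set a gene alone, these counts were 3 and 2659, by the mean of a gene's probe sets 3 and 2658, and without s_at and x_at probe sets, which removes ESRP1, 1 and 1888; fewer features were then tested. They were 1 and 1337 with averaged arrays, 1 and 678 with the ACTB covariate, 1 and 769 with a minimum fold of 1.2, 1 and 1982 without hairpin 65, and 1 and 1964 without hairpin 66; the cause was not tested.

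Hairpins 65 and 66 called 5 of 14 member probe sets each, beside 18.2% and 17.2% of all probe sets. By 1 probe set a gene or by the gene mean they called 3 and 3 of 8 genes. By 1 probe set a gene, 20.8% and 19.6% of all genes passed, with p-values adjusted over all probe sets. The member counts were 1 and 1 without s_at and x_at probe sets, where fewer were tested. They were 2 and 2 with the minimum fold, and 3 and 3 without shGFP. With shScr alone as the reference hairpin 66 called 3 of 14, beside 11.9% of all probe sets. Between shGFP and shScr the count was 7 of 14, beside 5.56% of all probe sets. It became 4 of 8 by 1 probe set a gene, beside 6.59% of genes with p-values adjusted over all probe sets. It was 3 of 8 by the gene mean, 2 without s_at and x_at probe sets and 1 with the minimum fold. For the other settings of these comparisons the share over all probe sets was not counted. Leaving out 1 array gave 4 to 5 members (3141 to 3713 probe sets in all) for the arms, 5 to 5 for hairpin 65, 4 to 5 for hairpin 66, 0 to 0 between them and 1 to 7 between the controls. It gave -2.24 to -2.12 for PPARGC1A and 0.27 to 0.40 for the ACTB difference.

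Replicate numbers did not pair the arrays: the correlations of replicate 1 minus replicate 2 between hairpins lay between -0.10 and 0.03 over 6 pairs of hairpins. With the replicate block the arms and both hairpins called 5 member probe sets each, 65 against 66 called 0, and shGFP against shScr 6. Between the arms 3624 probe sets in all passed with that block, and for the other comparisons that number was not counted. Of the 39 list genes called, 27 kept their call without any 1 array, 30 with the hairpin as a random block, 35 with the replicate block (lost: DSC3, IQGAP1, PTBP2 and TYRP1; adjusted p = 0.061 for DSC3 and 0.0567 for PTBP2), 16 with averaged arrays and 6 with the ACTB covariate. Signals near the lowest of the array, as for CDH1, CDH3 and CDH11, limit what could be seen there.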
